A study of Mus musculus with 16 samples.

Results

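The genes described here are 9 genes of CXC chemokines, Cxcl1, Cxcl2, Cxcl9, Cxcl10, Cxcl11, Cxcl12, Cxcl13, Cxcl14 and Cxcl16, measured in macrophages sorted from mouse gliomas. They were listed by name, and each gene is represented by the probe set that carries its symbol alone and has the highest mean over all 16 arrays. The 9 genes have 14 probe sets, 5 of them have more than 1, and they are 9 of the 12393 genes tested. All 16 mice were Nestin-Tv-a;Ink4a/Arf-/- on a mixed background, so every mouse, Vehicle included, lacked Ink4a/Arf, and the receptor for the RCAS retrovirus was driven by the Nestin promoter. Tumours were started at 5 to 6 weeks of age by an intracranial injection of DF-1 cells, an avian line, that produced RCAS-PDGF-B-HA, and mice were randomised 4 to 5 weeks later, once MRI showed a tumour volume between 4.5 and 40 mm3. The Vehicle group (8 mice) received 20% captisol, and the BLZ945 group (8 mice) received 200 mg of BLZ945, an inhibitor of the kinase of the receptor for colony-stimulating factor 1, with no body weight given, by gavage once per day for 7 days. CD11b+ Gr1- cells of the dissected tumour were sorted, and 75 ng of RNA per mouse was hybridised to 1 Affymetrix array. The Vehicle group held 4 females and 4 males and the BLZ945 group 5 females and 3 males. At 11.29 weeks of age there were 4 mice of each agent. The other Vehicle mice were 11.43 (2 mice) or 12.29 weeks old (2 mice), and the other 4 BLZ945 mice were 13.14 weeks old, an age with no Vehicle mouse.

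CXC chemokines are small secreted proteins that steer leukocytes along a gradient through G protein-coupled receptors. Cxcl9, Cxcl10 and Cxcl11 are induced by interferons and call activated T cells and natural killer cells through Cxcr3. Cxcl1 and Cxcl2 attract neutrophils through Cxcr2 and are induced through NF-kB, Cxcl12 retains cells through Cxcr4, and Cxcl13 draws B cells through Cxcr5. Cxcl14 is made by many tissues under resting conditions, and Cxcl16 is made as a membrane protein that scavenges lipoprotein and, once shed by Adam10, attracts cells that carry Cxcr6. Tumour macrophages are a known source of several of these ligands.

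The values are deposited log2 expression values, in which a difference of 1 is a doubling, and levels of different probe sets are not compared with each other. The largest value of an array lay between 13.87 and 14.34, the SD of its log2 values was 2.30 to 2.49 in Vehicle and 2.22 to 2.43 in BLZ945, and no pair of arrays correlated above 0.991. Csf1r, the receptor that BLZ945 inhibits and a macrophage marker, was at 13.61 ± 0.14 in Vehicle and 13.66 ± 0.12 in BLZ945 (SD, n = 8 each). The mean of 10 macrophage markers was 11.52 to 11.99 in Vehicle and 11.29 to 11.89 in BLZ945, and 1 of the 10 fell, the sort antigen gene Itgam (-1.17, adjusted p = 0.00807). Markers of other cells were measured in the same RNA: 5 of 9 glioma and oligodendrocyte precursor markers fell, with a list mean of 5.96 to 7.73 in Vehicle and 4.62 to 6.36 in BLZ945, 1 of 6 astrocyte markers fell, and 0 of 8 pericyte and fibroblast, 0 of 10 T and NK cell, 0 of 7 neutrophil, 0 of 4 B cell, 0 of 5 dendritic, 0 of 7 endothelial and 0 of 5 neuronal markers passed. Without a call, the pericyte and fibroblast markers had a median difference of -0.67 and the T and NK cell markers of 0.47, beside 0.07 over all genes. The list mean of the pericyte and fibroblast markers was 6.03 to 9.17 in Vehicle and 5.62 to 8.28 in BLZ945. The part of any of these cell types in the results on the chemokines was not tested unless a measurement is given beside the result. In RNA from a bulk sort, fewer cells of a type and less RNA per cell cannot be told apart.

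The first comparison asks how the CXC chemokine genes differ between macrophages of BLZ945 and Vehicle mice. Of the 9 genes, 1 passed at an adjusted p under 0.05: Cxcl16, which rose by 0.58 log2 units, 1.49-fold. Cxcl10 was lower by 0.97 and Cxcl11 by 0.63, without passing. Cxcl1, Cxcl2, Cxcl9, Cxcl12, Cxcl13 and Cxcl14 differed by between -0.27 and 0.24, each by less than the SD of either group. The background was 983 of 12393 genes called (7.93%), with 2.6% higher and 5.33% lower in BLZ945, and the median difference was 0.11 over the 9 genes and 0.07 over all genes. With quantile normalization repeated, 491 genes were higher and 636 lower, against 322 and 661. The 8 values of each agent overlapped for all 9 chemokine genes, where 1.35% of all genes had groups without overlap.

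**Figure D1:**
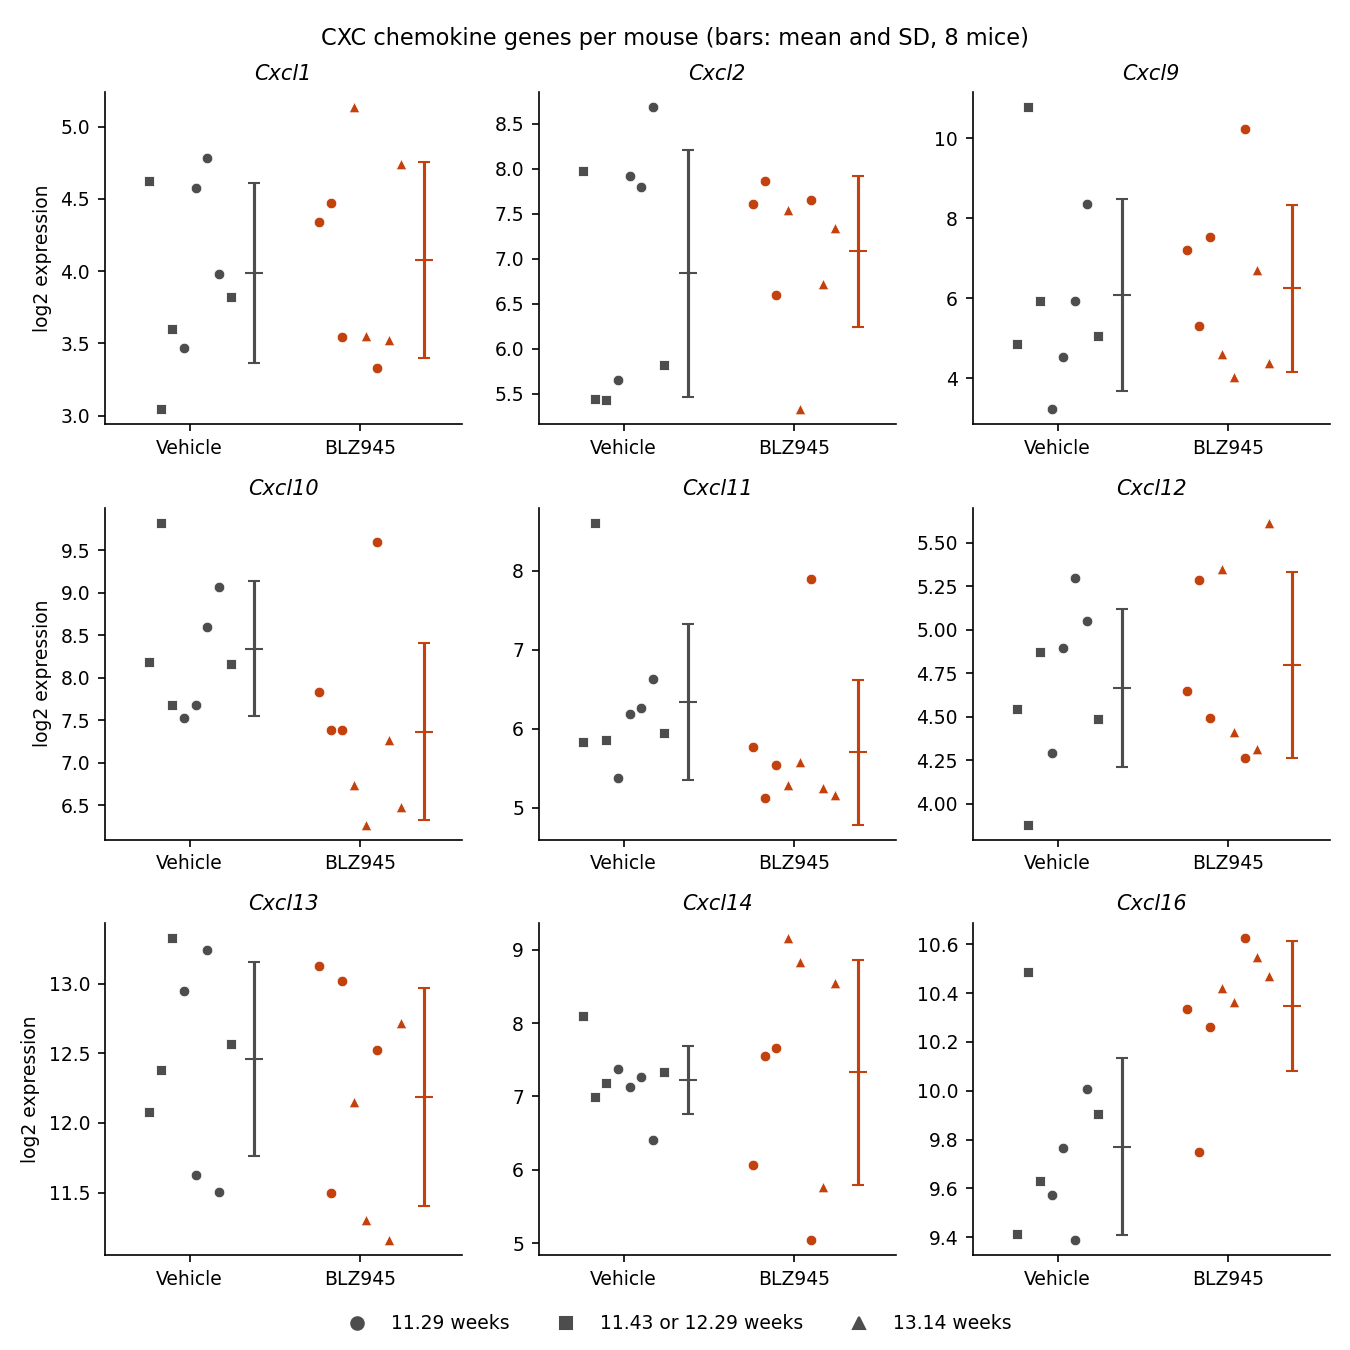
Log2 expression (y axis, a separate scale for each panel) of the 9 CXC chemokine genes in the 8 Vehicle (grey) and 8 BLZ945 mice (orange); each point is 1 mouse, symbols mark its age, and bars are the mean and SD of the group. Cxcl16 lies above the Vehicle median of 9.70 in 8 of 8 BLZ945 mice, and 1 mouse of each agent stands far above the others for Cxcl11.

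Cxcl16 was the gene that passed. Its lowest, median and highest values were 9.39, 9.70 and 10.49 in Vehicle, and 9.75, 10.39 and 10.63 in BLZ945. All 8 BLZ945 mice lay above the Vehicle median and 2 of 8, BLZ945 6 and 7, lay above every Vehicle mouse, while Vehicle 2 was the Vehicle mouse at 10.49 and BLZ945 2 the BLZ945 mouse at 9.75. The means were 9.77 ± 0.36 and 10.35 ± 0.27 (SD, n = 8 each), a difference of 0.58 (SE 0.16, limma adjusted p = 0.0281, exact two-sided permutation p = 0.00544). The second probe set of Cxcl16 gave 9.09 ± 0.37 and 9.68 ± 0.27, a difference of 0.59 (adjusted p = 0.0295). Among the 4 against 4 mice of 11.29 weeks, Cxcl16 differed by 0.56, from 9.68 ± 0.26 to 10.24 ± 0.36 (adjusted p = 0.257), and in the older BLZ945 mice it lay between 10.36 and 10.55. The call was lost without Vehicle 1 (adjusted p = 0.0580), Vehicle 4 (0.0563), Vehicle 6 (0.0625) or BLZ945 7 (0.0594).

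The rise of Cxcl16 was 0.79 in females (adjusted p = 0.0167) and 0.35 in males (adjusted p = 0.787), and the test of that difference gave -0.44 (95% confidence interval -1.09 to 0.21, limma adjusted p = 0.983). Over all genes the interaction of agent and sex called 0 of 12393 (0%) with limma, and 414 genes had an unadjusted p under 0.05, none of them among the 9. Adam10, the protease that sheds Cxcl16 from the cell surface, fell by 0.55 (from 11.15 ± 0.23 to 10.60 ± 0.27, adjusted p = 0.0121). Adam17, a related sheddase, differed by -0.01 (adjusted p = 0.984). Cxcr6, the receptor of Cxcl16, was at 3.40 ± 0.34 and 3.57 ± 0.61 (adjusted p = 0.665), and its highest value, 5.07, was in BLZ945 6, also the mouse with the highest Cxcl16. Both means of Cxcr6 lie below 4.37, the lower quartile of gene means.

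**Figure D2:**
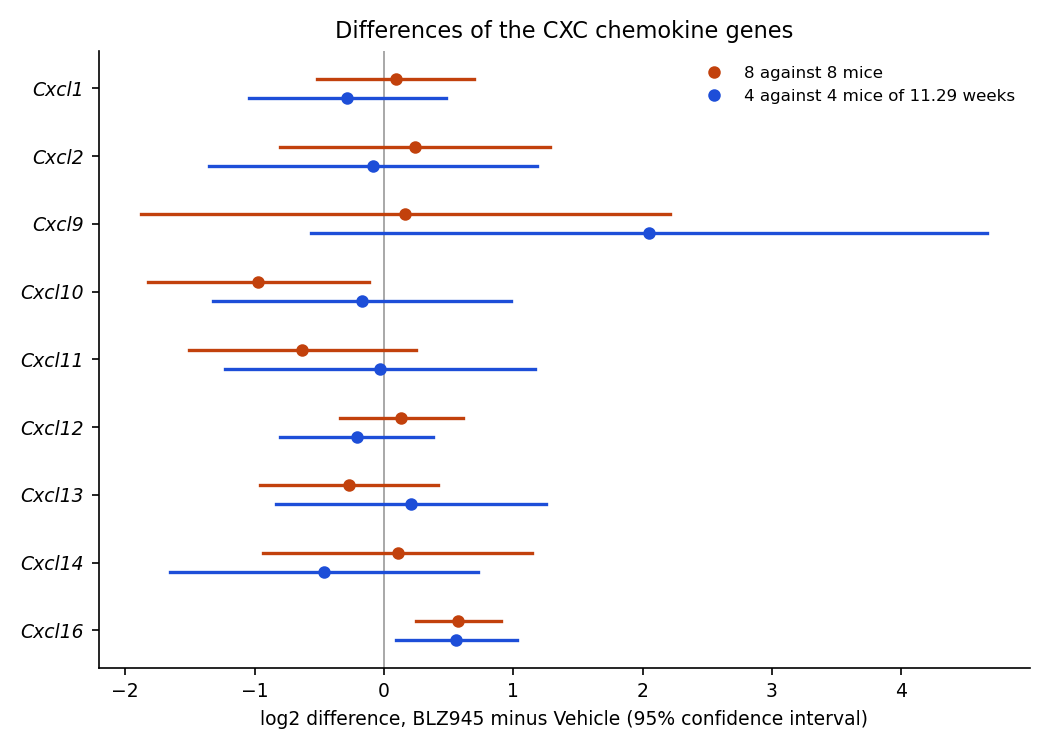
Difference of each CXC chemokine gene, BLZ945 minus Vehicle, in log2 units with its 95% confidence interval (x axis), over 8 against 8 mice (orange) and over the 4 against 4 mice of 11.29 weeks (blue). Cxcl16 is at 0.58 and 0.56, Cxcl10 at -0.97 and -0.17, and Cxcl9 at 0.17 and 2.05.

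The 3 interferon-induced ligands lie side by side on chromosome 5. In the RefSeq annotation of GRCm38.p6, 1 protein-coding gene, Art3, lies between Cxcl9 and Cxcl10, and 0 lie between Cxcl10 and Cxcl11, which RefSeq lists there as a transcribed pseudogene. Cxcl1 and Cxcl2 are neighbours on the same chromosome, with 0 protein-coding genes between them. The 250 bases before the start of these genes are shown because these neighbours also varied together between mice by Pearson's r, as described below. Windows from RefSeq (GRCm38.p6) were matched by symbol for 7 of the 9 genes, not for Cxcl11 or Cxcl16. Capitals mark matches, on either strand, to the interferon-stimulated response element core GAAANNGAAA or to the NF-kB consensus, and the gamma-activated sequence TTCNNNGAA was searched too.
Cxcl9 (chr5:92328080-92328329, minus strand): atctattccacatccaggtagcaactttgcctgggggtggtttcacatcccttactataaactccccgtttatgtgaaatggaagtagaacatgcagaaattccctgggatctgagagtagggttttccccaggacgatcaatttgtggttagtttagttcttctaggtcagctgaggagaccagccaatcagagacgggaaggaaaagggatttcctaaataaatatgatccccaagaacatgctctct
Cxcl10 (chr5:92348890-92349139, minus strand): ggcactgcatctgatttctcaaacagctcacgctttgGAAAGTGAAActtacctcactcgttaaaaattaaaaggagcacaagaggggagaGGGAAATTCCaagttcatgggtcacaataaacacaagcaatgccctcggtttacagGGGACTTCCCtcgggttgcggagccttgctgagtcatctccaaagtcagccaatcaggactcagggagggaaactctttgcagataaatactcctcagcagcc
Cxcl1 (chr5:90890995-90891244, plus strand): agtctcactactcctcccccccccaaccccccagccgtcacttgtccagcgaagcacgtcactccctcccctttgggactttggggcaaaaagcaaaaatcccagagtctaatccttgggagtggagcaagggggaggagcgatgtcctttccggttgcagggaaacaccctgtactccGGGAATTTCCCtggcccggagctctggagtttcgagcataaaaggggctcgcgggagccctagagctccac
Cxcl2 (chr5:90903649-90903898, plus strand): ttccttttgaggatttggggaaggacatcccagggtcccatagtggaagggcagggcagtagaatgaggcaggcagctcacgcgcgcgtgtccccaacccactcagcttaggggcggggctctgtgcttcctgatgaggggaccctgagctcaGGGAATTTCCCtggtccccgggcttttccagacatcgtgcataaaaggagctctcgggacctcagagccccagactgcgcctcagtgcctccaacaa
The Cxcl10 window holds GAAAGTGAAA, 213 to 204 bases before the start, and the NF-kB matches GGGAAATTCC (159 to 150) and GGGACTTCCC (103 to 94). The Cxcl9 window has no match to any of the 3 motifs, which says only that these letters are not in this window. Cxcl1 and Cxcl2 carry the same 11 letters, GGGAATTTCCC, read as overlapping NF-kB matches on both strands, 71 to 61 bases before the start of Cxcl1 and 97 to 87 before that of Cxcl2. The Cxcl14 window holds GAAACAGAAA and, apart from it, TTCTGAGAA, and those of Cxcl12 and Cxcl13 hold none. Of 32851 windows of the same length, 2.98% hold the response element core, 7.02% the gamma-activated sequence and 3.90% the NF-kB consensus, so a match is a description and not a site.

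Cxcl10 had the largest difference of the 9 genes. Its lowest, median and highest values were 7.52, 8.17 and 9.82 in Vehicle and 6.27, 7.32 and 9.60 in BLZ945. In BLZ945, 6 of 8 mice lay below every Vehicle mouse, BLZ945 1 lay within the Vehicle range at 7.83 and BLZ945 6 near its top. The means were 8.34 ± 0.79 and 7.37 ± 1.04 (SD, n = 8 each), 1.96-fold lower in BLZ945, a difference of -0.97 (SE 0.41, limma adjusted p = 0.161, exact two-sided permutation p = 0.0564). Without BLZ945 6 it was -1.29 (adjusted p = 0.0154), but that mouse was the highest BLZ945 mouse for Cxcl10, so its removal does not test a fall.

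The Cxcl10 values of the BLZ945 mice were also examined by age. The 4 mice of 13.14 weeks lay at 6.27 to 7.27 and the 4 mice of 11.29 weeks at 7.38 to 9.60, without overlap. Cxcl10 was the 1 gene of the 9 without overlap between these ages, against 9.03% of all genes, so 1 of 9 is near the background and is not read as a result. Vehicle mice lay at 7.52 to 9.07 at 11.29 weeks and at 7.67 to 9.82 at the other ages. At 11.29 weeks, the age with both agents, the Cxcl10 means were 8.22 ± 0.74 for Vehicle and 8.05 ± 1.06 for BLZ945 and differed by -0.17 (n = 4 each, limma adjusted p = 0.889). Within BLZ945 the mean was 8.05 ± 1.06 at 11.29 weeks and 6.69 ± 0.43 at 13.14 weeks, a difference of -1.36 that did not pass (SE 0.44, limma adjusted p = 0.191). The age comparison called 5 of 12393 genes (0.0403%), 0 of them chemokine genes, and 2 of the 9, Cxcl9 and Cxcl10, were among the 2311 genes with an unadjusted p under 0.05. No Vehicle mouse was 13.14 weeks old, so agent and age cannot be told apart in the mice in which Cxcl10 was lowest.

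Cxcl9 varied more between mice of 1 agent than any other of the 9 genes. Its lowest, median and highest values were 3.23, 5.50 and 10.77 in Vehicle and 4.04, 6.01 and 10.22 in BLZ945. The highest mice were Vehicle 2 and BLZ945 6, followed by Vehicle 7 at 8.35 and BLZ945 3 at 7.54. The means, 6.09 ± 2.40 and 6.25 ± 2.09, differed by 0.17 (SE 0.98, limma adjusted p = 0.930), with a 95% confidence interval of -1.88 to 2.21 on both sides of 0. Among the mice of 11.29 weeks the Cxcl9 means were 5.52 ± 2.19 for Vehicle and 7.57 ± 2.02 for BLZ945 and differed by 2.05 (adjusted p = 0.435). In the BLZ945 mice of 13.14 weeks it was 4.94 ± 1.21, lower than at 11.29 weeks by 2.63 (SE 0.88, adjusted p = 0.197).

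Cxcl11 showed the same pair of high mice. Its lowest, median and highest values were 5.38, 6.06 and 8.61 in Vehicle and 5.13, 5.42 and 7.90 in BLZ945, and the mice next to the highest were at 6.62 and 5.77. Apart from BLZ945 6, the BLZ945 mice lay between 5.13 and 5.77 and the Vehicle mice other than Vehicle 2 between 5.38 and 6.62. The means were 6.34 ± 0.99 and 5.70 ± 0.91, a difference of -0.63 (SE 0.42, limma adjusted p = 0.378), and -0.03 among the mice of 11.29 weeks (adjusted p = 0.985). The second probe set of Cxcl11 went from 3.75 ± 0.52 to 3.66 ± 0.36, a difference of -0.09 (adjusted p = 0.824). It is dim, with both means below 4.37, the lower quartile of gene means, so it is a weak check. Without Vehicle 2 and BLZ945 6 together, Cxcl11 was -0.62 (limma adjusted p = 0.0246), Cxcl10 -1.08 (0.0155) and Cxcl16 0.64 (0.00726). These mice were chosen on the values of these genes, so the calls made without them are no test.

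**Figure D3:**
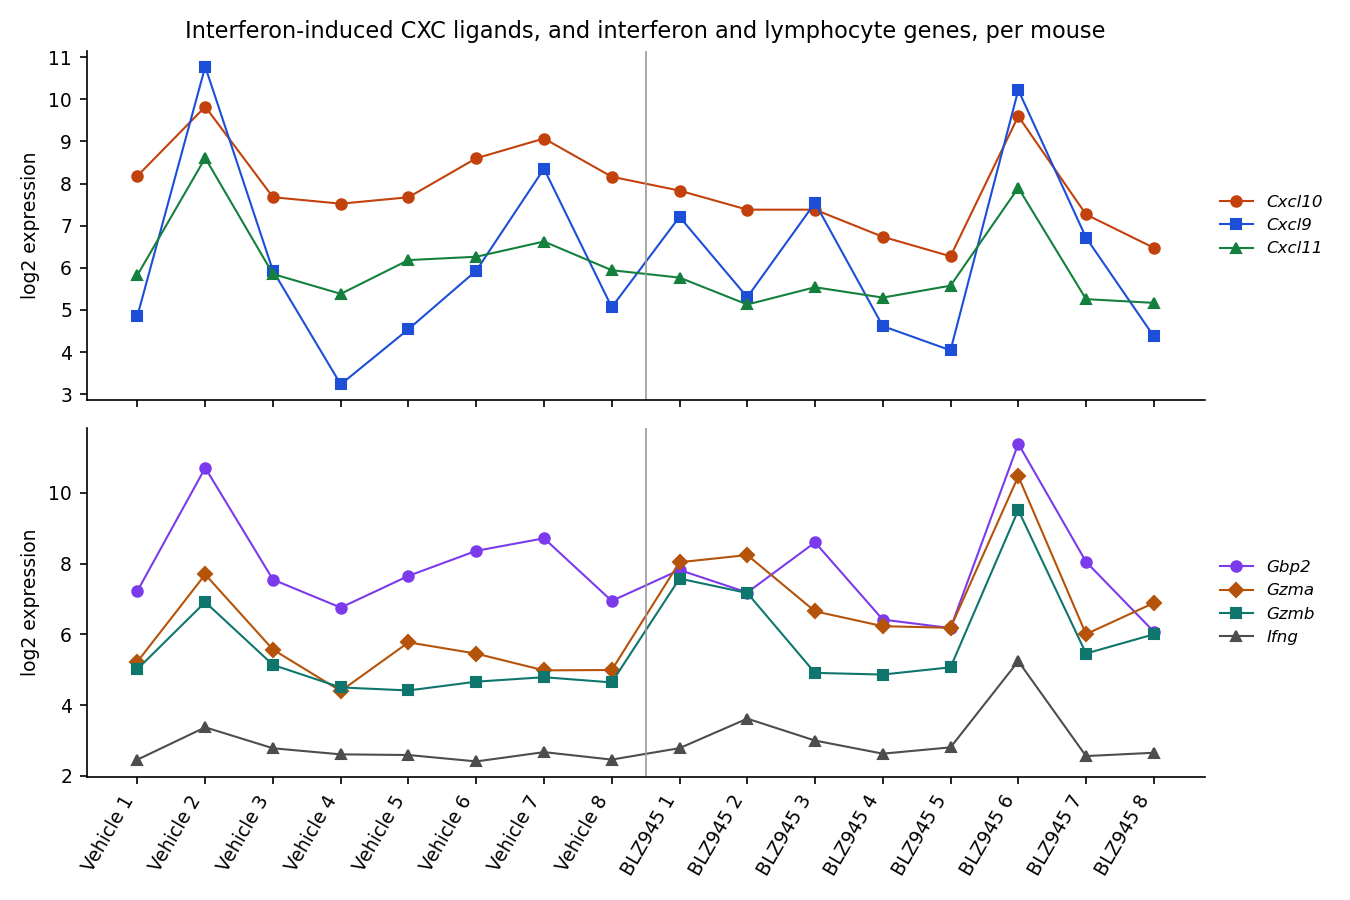
Log2 expression (y axis) in each of the 16 mice (x axis, Vehicle left and BLZ945 right of the grey line) of Cxcl9, Cxcl10 and Cxcl11 (top) and of Gbp2, Gzma, Gzmb and Ifng (bottom); lines join the values of 1 gene and imply no order of the mice. Vehicle 2 and BLZ945 6 hold the highest value of their own group for each of these genes, and Ifng reaches 5.24 in BLZ945 6.

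Several interferon and lymphocyte genes were also high in these mice, and those named here were picked from the lists after their values were seen. Gzma, a granzyme of cytotoxic lymphocytes, was 7.69 in Vehicle 2 against 4.40 to 5.78 in the other Vehicle mice, and 10.47 in BLZ945 6 against 6.01 to 8.24 in the other BLZ945 mice. Gzmb, a second granzyme, was 6.91 against 4.42 to 5.14 and 9.51 against 4.87 to 7.58. Ifng, the gene of interferon gamma, was 3.37 against 2.41 to 2.78 and 5.24 against 2.56 to 3.62. Each of these 3 genes was thus highest in Vehicle 2 among Vehicle mice and in BLZ945 6 among BLZ945 mice.
The mean of the 10 T and NK cell markers on the array was 5.15 in Vehicle 2 and 4.06 to 4.46 in the other Vehicle mice, and 6.16 in BLZ945 6 and 4.45 to 5.33 in the other BLZ945 mice. Of these 10 markers, 7 were highest in both mice within their agents (Cd3g, Cd3d, Cd2, Ncr1, Nkg7, Gzma and Gzmb), Cd8a was highest in Vehicle 2 alone, and Cd3e and Cd4 were highest in neither. Cd3e, a subunit of the T cell receptor complex, was 4.82 in Vehicle 2 against 4.48 to 5.27 in the other Vehicle mice, and 5.13 in BLZ945 6 against 4.64 to 5.71 in the other BLZ945 mice. Cd4 was 5.33 against 4.82 to 5.56 and 5.08 against 5.07 to 5.78. The mean of 4 B cell markers was highest in these mice too, at 5.08 in Vehicle 2 against 4.33 to 4.63, and 4.87 in BLZ945 6 against 4.48 to 4.82. The mean of 5 dendritic cell markers was 5.91 in Vehicle 2, above the 4.94 to 5.82 of the other Vehicle mice, and 6.31 in BLZ945 6, within the 4.90 to 6.75 of the other BLZ945 mice. All these levels are log2 values, so none is a 0, and detection above background was not assessed. Every Ifng value except that of BLZ945 6 lay below 4.37, the lower quartile of gene means. The part of lymphocytes and dendritic cells in the chemokine values was not tested. Irf1, a transcription factor induced by interferon gamma, was 11.08 in Vehicle 2 against 8.13 to 9.88, and 11.32 in BLZ945 6 against 8.42 to 10.18. Gbp2, an interferon-induced GTPase, was 10.71 against 6.76 to 8.72 and 11.39 against 6.08 to 8.60. Vehicle 7 came next among Vehicle mice for Cxcl9 (8.35), Cxcl10 (9.07) and Gbp2 (8.72), while its Gzma (4.98) and Gzmb (4.79) lay within the range of the other Vehicle mice.

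Of 7 CXC and atypical receptor genes, 1 rose and 0 fell: Cxcr3, the receptor of Cxcl9, Cxcl10 and Cxcl11, was 5.07 ± 0.21 in Vehicle and 5.80 ± 0.41 in BLZ945, a rise of 0.73 (SE 0.16, adjusted p = 0.00728). Cxcr3 was 4.77 to 5.41 in Vehicle and 5.17 to 6.42 in BLZ945. BLZ945 6, the BLZ945 mouse highest in all 3 ligands, was at 5.43 for Cxcr3, low within its group. Markers of T and NK cells, which are known to carry Cxcr3, had a median difference of 0.47 between agents, beside 0.07 over all genes, with 0 of 10 called and a list mean of 4.06 to 5.15 in Vehicle and 4.45 to 6.16 in BLZ945. Among them Gzma differed by 1.83 (adjusted p = 0.0506) and Nkg7 by 1.03 (0.0588), and the part of such cells in the Cxcr3 value was not tested.

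Cxcl1 and Cxcl2, the neutrophil attractants, did not pass. Cxcl1 had lowest, median and highest values of 3.05, 3.90 and 4.78 in Vehicle and 3.33, 3.94 and 5.14 in BLZ945, and the groups covered almost the same range. Its means were 3.99 ± 0.62 and 4.08 ± 0.68, a difference of 0.09 (SE 0.29, limma adjusted p = 0.868, 95% confidence interval -0.52 to 0.70). Cxcl1 is dim on this array and was removed by the filter on dim genes, and RMA values compress differences of dim probe sets. Cxcl2 had lowest, median and highest values of 5.44, 6.80 and 8.68 in Vehicle and 5.33, 7.44 and 7.86 in BLZ945. The Vehicle values of Cxcl2 left a gap: Vehicle 2, 3, 4 and 8 lay between 5.44 and 5.82 and Vehicle 1, 5, 6 and 7 between 7.79 and 8.68. In BLZ945, 7 of 8 mice lay between 6.59 and 7.86 and BLZ945 5 at 5.33. The means of Cxcl2, 6.84 ± 1.37 and 7.08 ± 0.84, differed by 0.24 (SE 0.50, adjusted p = 0.788).

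Of 14 NF-kB genes on the array, 4 rose and 0 fell in BLZ945, with a median difference of 0.48 against 0.07 over all genes. They were the subunit genes Relb (0.80, adjusted p = 0.00301) and Rela (0.48, adjusted p = 0.00464), the cytokine gene Il1b (1.04, adjusted p = 0.0123) and Tnfaip3, an inhibitor of the pathway (0.71, adjusted p = 0.0183). Cxcr2, the receptor of Cxcl1 and Cxcl2, was at 5.04 ± 0.40 and 5.35 ± 0.40 (adjusted p = 0.335). Of 7 neutrophil markers on the array 0 passed, and their mean was 4.24 to 6.11 in Vehicle and 4.71 to 5.38 in BLZ945.

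Cxcl12, the ligand of Cxcr4, had lowest, median and highest values of 3.88, 4.71 and 5.30 in Vehicle and 4.26, 4.57 and 5.62 in BLZ945. BLZ945 4 and 8 lay above every Vehicle mouse and the other 6 within the Vehicle range. The means were 4.66 ± 0.45 and 4.80 ± 0.53, a difference of 0.13 (SE 0.23, limma adjusted p = 0.738). The second probe set of Cxcl12 went from 3.84 ± 0.22 to 4.29 ± 0.36, a difference of 0.45 (adjusted p = 0.0775). Both means of that probe set lie below 4.37, the lower quartile of gene means. Cxcl12 was also compared with its receptors. The receptor genes of Cxcl12, named here with their values seen, were Cxcr4, at 8.88 ± 0.98 and 9.85 ± 0.20 (0.97, adjusted p = 0.0666), and Ackr3, a scavenging receptor, at 5.95 ± 1.02 and 4.77 ± 0.78 (-1.18, adjusted p = 0.0810). Cxcr4 spread from 7.42 to 9.98 in Vehicle and from 9.57 to 10.12 in BLZ945.

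Cxcl13, the B cell attractant, had lowest, median and highest values of 11.50, 12.47 and 13.33 in Vehicle and 11.16, 12.34 and 13.12 in BLZ945. BLZ945 2, 5 and 7 lay below every Vehicle mouse and the other 5 were spread over the Vehicle range. Its means, 12.46 ± 0.69 and 12.19 ± 0.78, differed by -0.27 (SE 0.33, limma adjusted p = 0.628, 95% confidence interval -0.96 to 0.42). The second probe set gave -0.32 (adjusted p = 0.634). Cxcr5, the receptor of Cxcl13, was at 3.29 ± 0.23 and 3.44 ± 0.31 (adjusted p = 0.552). It is dim, with both means below 4.37, the lower quartile of gene means.

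On the probe set that stands for it, Cxcl14 had nearly equal means and unequal spreads. Its lowest, median and highest values were 6.40, 7.22 and 8.09 in Vehicle and 5.04, 7.60 and 9.16 in BLZ945. BLZ945 4, 5 and 8 lay above every Vehicle mouse, BLZ945 1, 6 and 7 below every Vehicle mouse, and BLZ945 2 and 3 within the Vehicle range. The means were 7.22 ± 0.47 and 7.33 ± 1.54 (SD, n = 8 each), a difference of 0.11 (SE 0.50, limma adjusted p = 0.911). The direction is not settled: it was -0.46 among the mice of 11.29 weeks and -0.11 on the second probe set (adjusted p = 0.840). On that second probe set the spreads were closer, at 5.39 ± 0.50 in Vehicle and 5.29 ± 0.71 in BLZ945. Its values ran from 4.76 to 6.16 in Vehicle and from 4.44 to 6.31 in BLZ945. In BLZ945 Cxcl14 was 6.58 ± 1.26 at 11.29 weeks and 8.08 ± 1.56 at 13.14 weeks, a difference of 1.50 (SE 0.75, adjusted p = 0.305). All 3 high BLZ945 mice were females of 13.14 weeks, and BLZ945 7, the male of that age, was at 5.76.

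The second comparison is by sex, with the agent as covariate. It called 4 of 12393 genes (0.0323%) and 0 of the 9, of which 2, Cxcl13 and Cxcl14, were among the 1213 genes with an unadjusted p under 0.05. Cxcl14 was 7.79 ± 0.97 in 9 females and 6.61 ± 0.92 in 7 males, lower in males by 1.19 after the agent was fitted (SE 0.43, limma adjusted p = 0.484). Cxcl13 was 12.61 ± 0.67 in females and 11.95 ± 0.66 in males, a fitted difference of -0.71 (SE 0.30, adjusted p = 0.504). The agent difference of Cxcl14 was 0.59 in females and -0.86 in males, and the test of that contrast gave -1.44 (95% confidence interval -3.18 to 0.29, adjusted p = 0.983).
Cxcl9 was higher in males by 1.56 (adjusted p = 0.562), Cxcl10 by 0.74 and Cxcl11 by 0.68. Vehicle 2 and BLZ945 6 are both male, and without them these differences were 0.17, 0.14 and -0.08. These mice were chosen as the highest for these genes, so their removal must lower the male values and tests nothing about sex.

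The labelled tumour volume could be examined within BLZ945 alone. The labelled initial volume, given without a unit, was 11.9 to 27.3 in 6 Vehicle mice and 41.3 to 132.3 in the 8 BLZ945 mice, so agent and volume cannot be told apart across groups. If these volumes are in mm3, the 6 Vehicle values lie within the bounds for randomisation, 4.5 and 40 mm3, and the 8 BLZ945 values lie above them, so what the label measures is not settled here. Within BLZ945, the slope per doubling of that volume was called for 0 of 12393 genes (0%) with limma, and 846 genes but none of the 9 had an unadjusted p under 0.05. Cxcl9 had a slope of -1.12 (95% confidence interval -3.53 to 1.28) and Cxcl10 of -0.56 (-1.79 to 0.66), both with intervals that hold 0. With log2 volume as covariate in the agent comparison, a fit that drops Vehicle 1 and 2, which have no labelled volume, Cxcl16 was 0.74 (adjusted p = 0.133) and Cxcl10 -0.35.

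Some of the chemokine genes varied together between mice of the same agent. Correlations were taken over the 16 mice after the mean of each agent was removed, for all 36 pairs, with permutation of mice within agents and p-values adjusted over the 36 pairs. By Pearson's r, 8 pairs passed. Cxcl9 and Cxcl10 had r = 0.92 (permutation adjusted p = 0.00072) and rho = 0.92 (0.00036), and r = 0.84 without Vehicle 2 and BLZ945 6, the mice farthest from the median. Cxcl9 and Cxcl11 had r = 0.88 (permutation adjusted p = 0.00162), rho = 0.68 (0.0602) and r = 0.69 without those mice. Cxcl10 and Cxcl11 had r = 0.87 (permutation adjusted p = 0.00198), rho = 0.64 (0.0697) and r = 0.59 without them. By rank, with only the agent means removed, Cxcl9 with Cxcl10 passed and the pairs of Cxcl11 with Cxcl9 and Cxcl10 did not. These pairs with Cxcl11 passed by rank with age class or sex also removed, as given below. By Pearson's r they rested in part on the mice that stand apart.

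Cxcl1 varied with Cxcl12 and, by Pearson's r but not by rank when only the agent means were removed, with Cxcl2. Cxcl1 and Cxcl12 had r = 0.83 (permutation adjusted p = 0.00198), rho = 0.91 (0.00036) and r = 0.78 without Vehicle 6 and BLZ945 4, and r was 0.73 within Vehicle and 0.91 within BLZ945. Cxcl1 and Cxcl2 had r = 0.66 (permutation adjusted p = 0.0368), rho = 0.55 (0.122) and r = 0.66 without Vehicle 6 and BLZ945 4. The call of Cxcl1 with Cxcl2 ended, at adjusted p 0.0503 to 0.0761, when Vehicle 1, 2, 4, 5, 6 or 8 or BLZ945 1, 2 or 3 was left out. Cxcl2 and Cxcl12 had r = 0.55 (permutation adjusted p = 0.0897), rho = 0.50 (0.145) and r = 0.62 without Vehicle 3 and BLZ945 5, and did not pass. Cxcl1 and Cxcl12 were both lowest in Vehicle 2 among Vehicle mice and in BLZ945 6 among BLZ945 mice, the mice highest in the interferon-induced ligands. The mean of 8 pericyte and fibroblast markers was 6.03 in Vehicle 2 against 6.70 to 9.17 in the other Vehicle mice, and 5.86 in BLZ945 6 against 5.62 to 8.28 in the other BLZ945 mice, and the part of such cells in the Cxcl12 values was not tested.
Cxcl14 was inversely related to Cxcl9 and Cxcl10. With Cxcl10 it had r = -0.71 (permutation adjusted p = 0.00732), rho = -0.65 (0.0697) and r = -0.64 without Vehicle 2 and BLZ945 6. With Cxcl9 it had r = -0.66 (permutation adjusted p = 0.00732), rho = -0.71 (0.0368) and r = -0.65 without them, and r was -0.56 within Vehicle and -0.86 within BLZ945. Without BLZ945 6 alone, r was -0.53 for Cxcl9 and Cxcl14 (adjusted p = 0.0604) and -0.54 for Cxcl10 and Cxcl14 (0.0652), so these calls were lost. Cxcl11 and Cxcl14 had r = -0.50 (permutation adjusted p = 0.0724), rho = -0.53 (0.138) and r = -0.30 without Vehicle 2 and BLZ945 6, and did not pass. Cxcl11 and Cxcl16 had r = 0.68 (permutation adjusted p = 0.0323), rho = 0.56 (0.138) and r = 0.34 without Vehicle 2 and BLZ945 6, so this relation rests on those mice. Its call also ended without Vehicle 1, 4 or 7 (adjusted p 0.0546 to 0.0598) and with quantile normalization repeated (0.128). Cxcl13 was in none of the pairs that passed, with r between -0.20 and 0.08.

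Age and sex were not removed in these correlations. In BLZ945 the 3 females of 13.14 weeks were the highest for Cxcl14 (8.55 to 9.16) and the lowest for Cxcl9 (4.04 to 4.62) and Cxcl10 (6.27 to 6.74). With the means of agent and age class (11.29 weeks or other) removed and mice permuted within both, 10 pairs passed by Pearson's r. Among them were all 8 named above. Cxcl16 with Cxcl9 (r = 0.82, permutation adjusted p = 0.0172) and with Cxcl14 (-0.54, 0.0172) passed there too. By rank, Cxcl16 passed with Cxcl14 (rho = -0.70, 0.0375) and not with Cxcl9 (0.69, 0.0755). Neither pair passed by Pearson's r with only the agent means removed (0.0724 with Cxcl9, 0.371 with Cxcl14) or with agent and sex removed (0.253 and 0.365). By rank, Cxcl14 with Cxcl9 (rho = -0.50, permutation adjusted p = 0.103) and with Cxcl10 (-0.51, 0.128) did not pass. Nor did Cxcl11 with Cxcl16 (0.68, 0.0731). Cxcl11 with Cxcl9 (rho = 0.79, 0.0375) and with Cxcl10 (0.76, 0.0443), and Cxcl1 with Cxcl2 (0.74, 0.0498), passed by rank. With the means of agent and sex removed, 6 pairs passed by Pearson's r. By rank, Cxcl11 with Cxcl9, Cxcl11 with Cxcl10 and Cxcl1 with Cxcl2 each passed there (permutation adjusted p = 0.0273). Cxcl9 with Cxcl14 was then at r = -0.62 (permutation adjusted p = 0.0274), while Cxcl10 with Cxcl14, at r = -0.61 (0.118), and Cxcl11 with Cxcl16, at r = 0.69 (0.265), did not pass. Age and sex were not removed together, so the part of the older females in these relations was not tested.

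**Figure D4:**
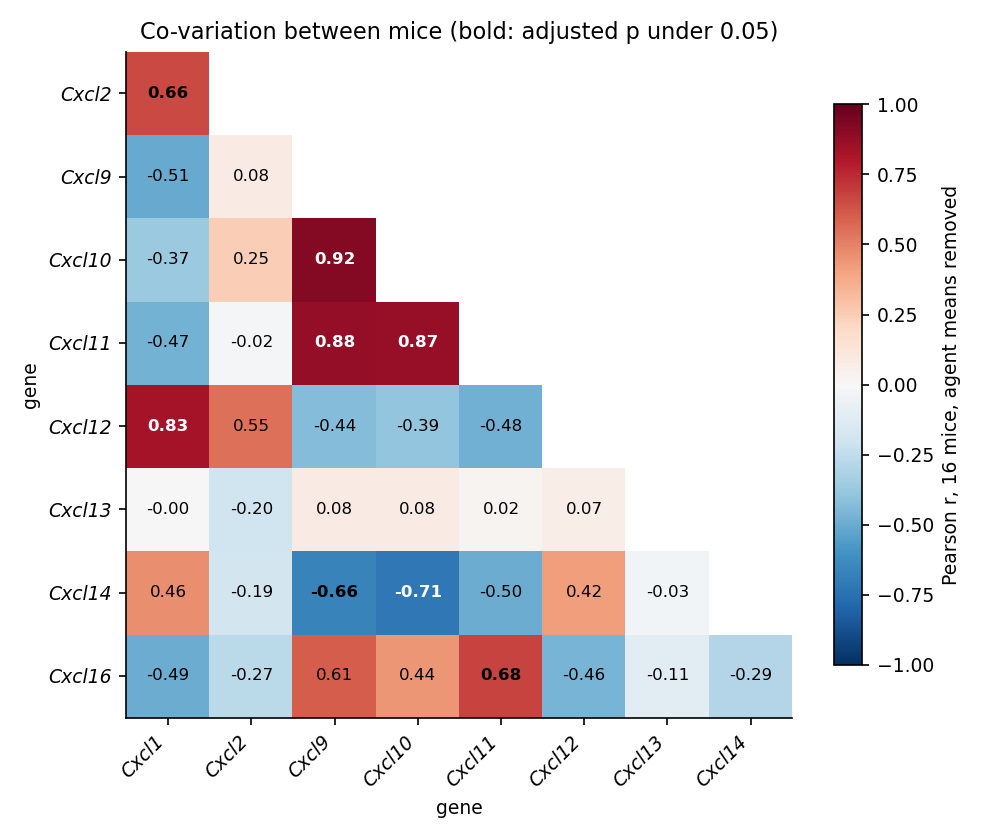
Pearson correlation (colour and number) between each pair of the 9 CXC chemokine genes over 16 mice, after the mean of each agent was removed; bold marks the 8 pairs with a permutation p adjusted over 36 pairs under 0.05. Cxcl9, Cxcl10 and Cxcl11 correlate at 0.87 to 0.92, Cxcl1 with Cxcl12 at 0.83, and Cxcl14 with Cxcl10 at -0.71.

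The genes most like each chemokine gene were taken as the 3 other genes with the highest correlation of the same centred values over 16 mice, a description picked from 12393 genes and given with no p. For Cxcl9 they were AW112010 (r = 0.98), Iigp1 (0.96) and Psmb9 (0.95), for Cxcl10 Ifi47 (0.96), Ccl17 (0.96) and Gbp2b (0.94), and for Cxcl11 Zbp1 (0.96), Oasl2 (0.94) and Igtp (0.92). For Cxcl12 they were Cyp1b1 (0.94), Mgp (0.89), which encodes a matrix protein, and Ltbp3 (0.87), and for Cxcl14 Fn1 (0.91), the fibronectin gene, Adssl1 (0.90) and Htra3 (0.88). Cxcl1 was most like Serpinh1 (0.85), a collagen chaperone gene, Clec4d (0.83) and Tubb2b (0.81), and Cxcl2 was most like Adam8 (0.85), Fap (0.83) and Carhsp1 (0.82). For Cxcl16 they were Kynu (0.81), F7 (0.81) and Adhfe1 (0.80), and for Cxcl13 Cul7 (0.79), Ly86 (0.75) and Hmgn3 (0.73), the lowest correlations of the 9. Of these 27 genes, 1 passed in the agent comparison, Fap (-1.17, adjusted p = 0.0268).

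Other genes of CXC signalling were read from lists. Of 5 further CXC ligand genes on the array, 0 rose and 1 fell: Pf4, platelet factor 4, went from 8.40 ± 0.40 to 6.83 ± 0.73, a fall of 1.57 log2 units (SE 0.27, adjusted p = 0.00111). Pf4 was 7.85 to 9.17 in Vehicle and 6.07 to 7.96 in BLZ945. Of 11 genes of chemokine processing and shedding, 0 rose and 3 fell, with a median difference of -0.02: Adam10 as above, and the metalloprotease genes Mmp14 (-0.95, adjusted p = 0.0394) and Mmp2 (-0.70, adjusted p = 0.0416). Leaving out any of 10 mice ended the call of Mmp14 (Vehicle 1, 2, 3, 6 and 7 and BLZ945 2, 4, 5, 7 and 8, adjusted p 0.0535 to 0.0750), and any of 11 that of Mmp2 (Vehicle 1, 3, 4, 5, 6 and 7 and BLZ945 2, 5, 6, 7 and 8, adjusted p 0.0525 to 0.0900).
Of 5 hypoxia factors, 1 rose and 1 fell: the transcription factor gene Hif1a rose by 0.47 (adjusted p = 0.0394), a call that ended when any of 9 mice was left out (Vehicle 2, 4, 5, 7 and 8 and BLZ945 3, 5, 7 and 8, adjusted p 0.0591 to 0.0818), and Adm, the gene of a vasodilator peptide, fell by 3.44 (adjusted p = 1.02e-05).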

How the data were processed

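Expression was measured in CD11b+ Gr1- cells of 16 mice, 1 array each. The deposited values are log2 expression values per probe set, as their range shows. GCOS 1.4 and RMA are named in the submitters' processing notes, with no role stated for either. For the genome build and array annotation, nothing is given in the sources used here. Scanner intensities were not analysed here, and detection above background was not assessed. RMA corrects background, normalizes between arrays and summarises probes.

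Of 22690 probe sets, 20393 carried 1 symbol in the platform annotation, 691 several and 1606 none, and 20364 of the 20393 were found by gene identifier in RefSeq. After 13 array controls were left out, the probe set with the highest mean stood for each of 12393 genes. Groups came from the labelled agent. Comparisons were fitted over all genes by lmFit and eBayes of limma (version 3.58.1, R 4.3.3), with Benjamini-Hochberg adjustment and a threshold of 0.05, and limma's adjusted p-values are given throughout. The exact permutation test ran over all 12870 labellings and was two-sided. Correlations used 100000 two-sided permutations of mice within agents, so 1e-05 is the smallest p they can give. The number of arrays limits the precision. The fits were tested on simulated data.

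The 9 genes, the lists and the comparisons were chosen with earlier results of these data known. Named genes are the 9 chemokine genes, Csf1r, in each list the called genes of smallest p, at most 4, or the leading 2 by p where none was called, and the 3 genes most like each chemokine gene. Others are identified as named after their values were seen or are receptors and proteases of the 9. Alternatives covered probe set choice, dim genes, normalization, eBayes settings, array weights, covariates, subsets of mice, a replicate block, left-out mice and, chosen after seeing the data, age class or sex removed from the correlations.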

Additional observations from a re-analysis of the deposited data

Results flagged for a closer look

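In 4 of 18 groups (9 genes in each agent), the mouse at one end stood apart from the next by a larger part of the group's range than Dixon's limit for 8 mice allows, which chance exceeds in about 1 in 20 groups. Cxcl10 was 9.60 in BLZ945 6, with the next BLZ945 mouse at 7.83. Cxcl11 was 8.61 in Vehicle 2, with the next Vehicle mouse at 6.62, and 7.90 in BLZ945 6, with the next BLZ945 mouse at 5.77. Cxcl16 was 9.75 in BLZ945 2, below the next BLZ945 mouse at 10.26. The first 3 values lie in the 2 mice that were also highest in their groups for Cxcl9, and the groups share these mice, so they are not separate events.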

How the results depend on the processing

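The comparison of agents called 983 genes and 1 of the 9 chemokine genes, Cxcl16. With the SD of each array as covariate it called 1646 genes, with log2 volume (14 mice) 15, among mice of 11.29 weeks 89, in females 393 and in males 2. The 9 chemokine genes had 0 calls with log2 volume, at 11.29 weeks, in males and with the replicate block (Cxcl16 0.58, adjusted p = 0.0858). When each mouse was left out they had 0 to 2 calls, beside 709 to 1187 called over all genes. They had 3 without Vehicle 2 and BLZ945 6, an alternative chosen after seeing the values of these genes, so that count is no test. Smaller subsets hold fewer mice, and otherwise the cause was not tested. Numbers shared between agents do not pair the mice: same-numbered mice correlated above 0.1 in 5 of 8 pairs, 1 Vehicle mouse correlated best with its own number, and the block gave 872 genes.

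Differences that changed sign are all of genes that did not pass. Cxcl14 was -0.016 with array weights, -0.043 with sex as covariate, -0.29 with array SD, -0.041 with log2 volume, -0.46 at 11.29 weeks, -0.86 in males and -0.11 on its other probe set. With log2 volume Cxcl1 was -0.60, Cxcl2 -1.57, Cxcl12 -0.84 and Cxcl13 1.02, and at 11.29 weeks they were -0.28, -0.085, -0.21 and 0.21. Without Vehicle 2 and BLZ945 6, Cxcl2 was -0.040 and the sex difference of Cxcl11 -0.075. With each mouse left out, Cxcl1 ranged from -0.061 to 0.20, Cxcl9 from -0.40 to 0.84 and Cxcl14 from -0.16 to 0.43. Left-out mice gave 3 to 14 genes for sex, 14 without Vehicle 4, and 0 to 16 for age, where each of the 8 mice moved the count (0 without BLZ945 1, 2, 4 or 5, 16 without BLZ945 3), with 0 chemokine genes called in either, and 5 to 9 co-varying pairs, 5 without BLZ945 6. Cxcl1 with Cxcl2 passed or missed by a small margin (adjusted p 0.0147 to 0.0761), and Cxcl11 with Cxcl16 reached 0.392 without Vehicle 2. The filter on dim genes removes Cxcl1.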
